A study of Mus musculus with 4 samples.

Results

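Interferon-stimulated genes are the genes that cells switch on when interferon, a signal of infection, binds its receptors. The 41 genes described here are a set of such genes chosen by name, each taken from the count table by its symbol, and all 41 were found among the 48587 genes of the table. They hold transcription factors of the response, sensors of foreign nucleic acid, the IFIT and OAS families, other antiviral proteins, the ISG15 system, ADP-ribosyltransferases, guanylate-binding proteins and 7 other interferon-induced genes.

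RNA was sequenced from vascular smooth muscle cells (VSMCs) grown out of the descending aorta of young adult C57BL/6J mice. The cells carried a lentivirus for either a nontargeting short hairpin RNA directed at a plant microRNA sequence (shCTR) or a hairpin against Mettl14 (shMettl14), so both groups had been exposed to viral particles and vector RNA, and no untransduced cells were analysed here. METTL14 is a subunit of the enzyme complex that writes N6-methyladenosine, the most common internal modification of messenger RNA. Each group had 2 libraries, lettered A and B, and the labels do not say whether a letter marks a shared culture. A single hairpin against Mettl14 was used in these libraries, so an effect of that hairpin and an effect of Mettl14 loss cannot be told apart.

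In the canonical route, interferon binds a cell surface receptor, the kinases JAK1 and TYK2 are activated, and the factor ISGF3, which contains STAT2 and IRF9, is formed. ISGF3 enters the nucleus and binds the interferon-stimulated response element (ISRE) in the promoters of target genes. Several of the targets are themselves sensors or factors of the route, such as Irf7 and Stat2, so the response feeds back on itself. Usp18 helps to limit the response.

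The 4 libraries held between 114343653 and 124815868 counts, and 3 counts, the upper limit behind an observed 0, equalled 0.0231 to 0.0278 CPM. CPM, the usual depth-scaled unit, is a gene's count relative to the total of its library after TMM scaling, which corrects the totals for differences in RNA composition. Such limits cover counting error only. Mettl14 had 2050 and 2154 counts in shCTR A and B and 546 and 568 counts in shMettl14 A and B, which matched the labels. Its level was 19.0 ± 1.34 CPM in shCTR and 4.48 ± 0.163 CPM in shMettl14 (SD, n = 2 each), a log2 fold change of -2.08 (SE 0.25), with an unadjusted p of 0.00039 and an adjusted p of 1.0 in edgeR and 3.0e-07 in DESeq2. All 6 endothelial markers checked, Pecam1 and Cdh5 among them, were detected in every library although the cells were labelled as VSMCs, with summed levels of 1183 and 1814 CPM in shCTR and 1238 and 1331 CPM in shMettl14. The 8 smooth muscle markers summed to 6799 and 5772 CPM in shCTR and to 4442 and 4811 CPM in shMettl14. Acta2 and Tagln made up most of each sum. Within both letters 6 of the 8 were lower (27.7% of all genes), while Lmod1 was higher within B and Myocd within A. Leukocyte markers summed to between 12.5 and 17.9 CPM, with Siglech at 0 in all libraries, Tyrobp at no more than 1 count and Ptprc at 26 to 93 counts. The 6 fibroblast markers summed to 406 CPM in both A libraries, and to 209 CPM in shCTR B and 174 CPM in shMettl14 B. Most of each sum was Col14a1 and Dcn, which differed between the letters in opposite directions. Col14a1 had 322 and 37.6 CPM in shCTR A and B and 318 and 44.5 CPM in shMettl14 A and B. Dcn had 68.3 and 160 CPM in shCTR and 72.3 and 120 CPM in shMettl14. In bulk RNA, fewer cells of a type and less RNA per cell cannot be told apart, and the part of these markers in the results on interferon-stimulated genes was not tested.

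Promoter sequence was read first, because the ISRE is the element that ISGF3 binds. RefSeq promoters, the 250 bases before and 50 bases after a start on GRCm38.p6, were at hand for 30 of the 41 genes. A core ISRE, read as GAAA, any 2 bases and GAAA on either strand, was present in 16 of those 30 genes (53.3%), against 3.99% of 27025 genes with a promoter in the same table. The gamma-activated site (GAS), TTCNNNGAA, which reads the same on both strands, was present in 7 of the 30 (23.3%), against 9.55% of all genes. In Bst2 and Ifitm3 the matches of both motifs overlapped. These matches are letters in a window and were not tested for binding. Windows from 9 of the genes are shown because these genes range from lower within both letters to about level between the groups. Each holds up to 10 bases on either side of the core, 5′ to 3′ on the strand of the gene, with the core in capitals; a core on the opposite strand reads as TTTC, 2 bases, TTTC.
Ifit1, chr19:34640775-34640804: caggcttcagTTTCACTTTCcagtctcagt
Ifit1, chr19:34640794-34640823: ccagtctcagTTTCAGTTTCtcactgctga
Ifit3, chr19:34583363-34583392: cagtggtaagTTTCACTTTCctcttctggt
Ifit3b, chr19:34607759-34607788: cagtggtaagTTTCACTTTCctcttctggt
Gbp7, chr3:142530273-142530302: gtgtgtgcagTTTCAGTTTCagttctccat
Stat2, chr10:128270266-128270295: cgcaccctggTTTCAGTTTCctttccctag
Isg15, chr4:156200871-156200900: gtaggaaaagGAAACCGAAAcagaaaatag
Rsad2, chr12:26456553-26456582: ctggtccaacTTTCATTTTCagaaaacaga
Eif2ak2, chr17:78882535-78882564: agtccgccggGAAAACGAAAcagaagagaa
Bst2, chr8:71537577-71537606: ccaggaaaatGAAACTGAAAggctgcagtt
Ifit1 held 2 separate cores and Isg15 held 3 that overlap one another, of which the middle one is printed. Ifit3 and Ifit3b each held 2 cores whose windows were identical between the genes.

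Most of the 41 genes had lower levels in shMettl14 than in shCTR, and no gene passed the test. By edgeR log2 fold change 38 of the 41 were lower, against 48.8% of the 18916 genes tested, and all 41 members were among the genes tested. The median member log2 fold change was -0.35, against 0.0094 for all genes tested, and the members ran from -0.96 for Zbp1 to 0.06 for Eif2ak2. At an adjusted p of 0.05 the edgeR quasi-likelihood test called 0 of the 41, against 0.0% of all genes, and at an unadjusted p of 0.05 it also called 0, against 1.67% in either direction and 1.01% in the lower direction. DESeq2 called 0 at the adjusted threshold (0.0172% of all genes) and 2, Gbp7 and Rtp4, at the unadjusted one (1.52% of all genes). An exact permutation of 2 against 2 libraries cannot give a two-sided p below 0.333, so single genes were not tested that way. Where replicates are not stated to be separate cultures, these p-values measure only the spread between these libraries.

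Within both letters 26 of the 41 were lower in shMettl14 (27.7% of all genes), and 0 were higher in both (30.0% of all genes). Within A 31 were lower (49.7% of all genes) with a median log2 ratio of -0.22, and within B 36 were lower (48.0% of all genes) with a median of -0.47. For 17 members both shMettl14 libraries were below both shCTR libraries (13.3% of all genes), and for 0 they were above (14.7% of all genes). With library totals in place of TMM scaling, the members lower within both letters numbered 21 and those with both shMettl14 libraries below both shCTR libraries 11 (8.22% of all genes), since Ifit1, Stat2, Oas2, Oasl1, Gbp3 and Dtx3l then overlapped. The library with the lowest level was shMettl14 B for 29 members, against 20.7% of all genes. The highest was shCTR A for 23 and shCTR B for 17, and the shares of all genes were not counted for the highest library. Summed over the 41 genes, the level was 1890 and 1391 CPM in shCTR A and B and 1558 and 1219 CPM in shMettl14 A and B. So the summed level of shMettl14 A lay above that of shCTR B, and the groups overlapped. Abundant genes weigh most in these sums. Ifitm3 had 331 and 135 CPM in shCTR A and B and 227 and 171 CPM in shMettl14 A and B. Bst2 had 314 and 176 CPM in shCTR and 267 and 222 CPM in shMettl14. With shMettl14 B left out the median member log2 fold change was -0.18, and with shMettl14 A left out it was -0.66. The summed endothelial markers were lower in shMettl14 within B and slightly higher within A, and the summed smooth muscle markers were lower within both letters; their part in these medians was not tested.

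**Figure D1:**
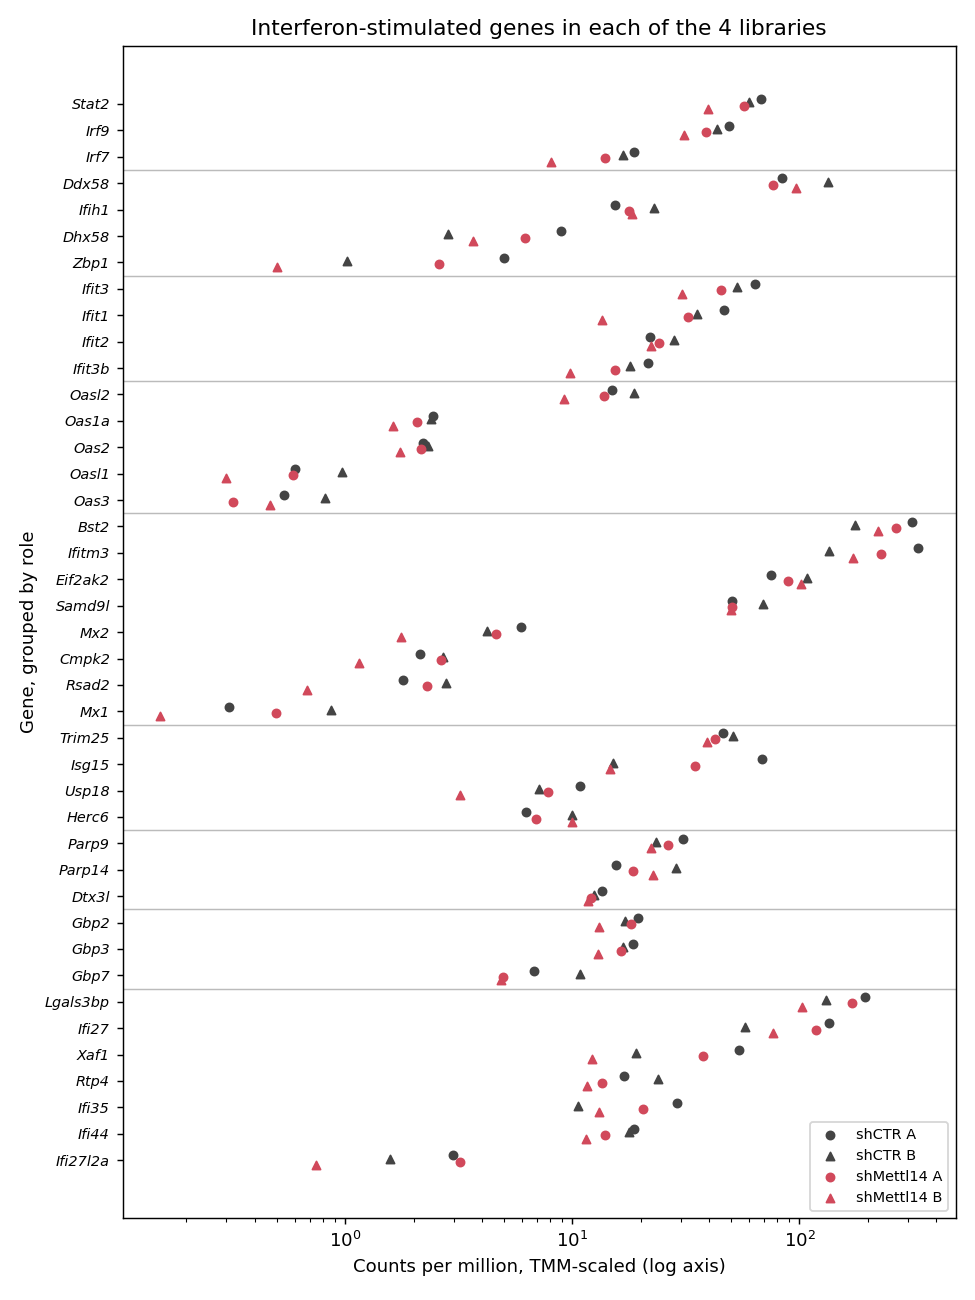
Level of each of the 41 genes in CPM (log axis) in the 4 libraries, grouped by role; grey marks are shCTR, red marks shMettl14, circles letter A and triangles letter B, 1 library each. The red triangle, shMettl14 B, is the lowest mark for 29 genes, while Isg15, Zbp1, Xaf1, Dhx58 and Ifitm3 spread widely between the grey marks.

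The 3 transcription factors of the response were lower in both shMettl14 libraries than in either shCTR library (13.3% of all genes). With library totals Stat2 overlapped (8.22% of all genes did not overlap in this direction). Counts within a role rest on few genes that share the same 4 libraries. Irf7, which drives the later wave of interferon production, had 2123 and 1802 counts in shCTR A and B and 1646 and 1043 in shMettl14 A and B. Its level was 17.7 ± 1.42 CPM in shCTR and 10.9 ± 4.13 CPM in shMettl14 (SD, n = 2 each), and the log2 fold change was -0.69 (SE 0.34), or -0.35 without shMettl14 B and -1.14 without shMettl14 A. Irf9, the DNA-binding part of ISGF3, had 5537 and 4670 counts in shCTR and 4616 and 4049 in shMettl14. Its groups did not overlap in CPM, and its log2 fold change was -0.39 (SE 0.22). Stat2, the activating part of ISGF3, had 7656 and 6469 counts in shCTR and 6801 and 5125 in shMettl14, with a log2 fold change of -0.40 (SE 0.26), or -0.15 without shMettl14 B and -0.69 without shMettl14 A. For all 3 factors shMettl14 B was the lowest library, and the ratios within letters, from -0.43 to -0.23 in A and from -1.06 to -0.47 in B, were on the same side of 0.

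Of the 4 sensors of nucleic acid, 2 were lower within both letters (27.7% of all genes). Ddx58, which encodes the RNA sensor RIG-I, had 9485 and 14383 counts in shCTR and 9048 and 12617 in shMettl14, and its log2 fold change was -0.32 (SE 0.30). It was lower in A than in B with either hairpin, and shMettl14 B lay above shCTR A. Ifih1, encoding the RNA sensor MDA5, had 1752 and 2462 counts in shCTR and 2117 and 2376 in shMettl14, and the shMettl14 values lay between those of shCTR. Dhx58, whose product LGP2 tunes both sensors, had 1012 and 307 counts in shCTR and 738 and 477 in shMettl14. Its ratio was -0.52 within A and 0.37 within B, so the letters disagreed in sign. Zbp1, a sensor of left-handed nucleic acid helices that can start cell death, had 571 and 110 counts in shCTR and 309 and 65 in shMettl14. Its ratios of -0.95 and -1.0 were close to one another, while its level differed between the letters by a log2 of -2.28 in shCTR and -2.34 in shMettl14 (B minus A). With a fold change of -0.96 (SE 1.06), Zbp1 had both the lowest value of the set and the widest error.

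The IFIT family, proteins that bind viral RNA and block its translation, lies in a cluster on chromosome 19, from Ifit2 (chr19:34550694-34576419) through Ifit3 (chr19:34583531-34588731) and Ifit3b (chr19:34607970-34613401) to Ifit1 (chr19:34640871-34650009). Of its 4 members 3 were lower within both letters (27.7% of all genes). Their groups did not overlap (13.3% of all genes in this direction), except for Ifit1 with library totals. Ifit1 had 5303 and 3817 counts in shCTR and 3836 and 1751 in shMettl14. That is 41 ± 8.02 CPM in shCTR and 22.9 ± 13.3 CPM in shMettl14 (SD, n = 2 each), with a log2 fold change of -0.84 (SE 0.46) and ratios of -0.53 in A and -1.39 in B. Its fold change was -0.34 without shMettl14 B and -1.61 without shMettl14 A. In B it had the lowest ratio of the cluster. Ifit3 had 7202 and 5719 counts in shCTR and 5381 and 3943 in shMettl14, a log2 fold change of -0.62 (SE 0.27). Ifit3b had 2451 and 1937 counts in shCTR and 1832 and 1270 in shMettl14, a log2 fold change of -0.65 (SE 0.31). Ifit3 and Ifit3b share 31.7% and 27.4% of their 100-base words with each other, and how the counting treated reads that fit both is not given in the sources used here, so their separate values are uncertain. Ifit2, the neighbour at the other end, had 2484 and 3015 counts in shCTR and 2862 and 2886 in shMettl14, with ratios of 0.14 in A and -0.33 in B.

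The OAS family holds enzymes that make a small RNA-like messenger to activate RNase L, and their relatives. With TMM scaling all 5 genes were lower within both letters (27.7% of all genes). They also did not overlap between the groups (13.3% of all genes in this direction). With library totals this held for 3 (18.3% and 8.22% of all genes), as Oas2 and Oasl1 were then higher within A, at ratios of 0.05 and 0.06. Oasl2, the member with the most counts, had 1696 and 2009 in shCTR and 1637 and 1196 in shMettl14. Its log2 fold change was -0.55 (SE 0.31), and its ratio was -0.12 in A and -1.01 in B. Oasl1, an inhibitor of Irf7 translation, had 68 and 105 counts in shCTR and 70 and 39 in shMettl14, and its ratio in A was only -0.02. Oas1a had 278 and 257 counts in shCTR and 247 and 211 in shMettl14, and it shares 40.9% of its 100-base words with Oas1g, so its counts are uncertain. Oas2 had 249 counts in each shCTR library and 255 and 226 in shMettl14, a log2 fold change of -0.21 (SE 0.36). Oas3 had between 38 and 88 counts in the 4 libraries and a log2 fold change of -0.77 (SE 0.52). For Oas1a, at -0.38 (SE 0.37), and Oas2 the fold change was close to or below its standard error, although the groups did not overlap.

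Among the 8 other antiviral effectors, Mx2 alone was lower within both letters (27.7% of all genes). Mx2, of the dynamin-like GTPase family, had 676 and 457 counts in shCTR and 546 and 229 in shMettl14. Its log2 fold change was -0.68 (SE 0.55), or -0.14 without shMettl14 B and -1.53 without shMettl14 A. Rsad2 (viperin), which makes a chain-terminating nucleotide, had 204 and 300 counts in shCTR and 273 and 88 in shMettl14. Cmpk2, its neighbour on chromosome 12 and a kinase that supplies its substrate, had 243 and 292 counts in shCTR and 315 and 149 in shMettl14. Both genes were higher within A, at 0.35 and 0.31, and lower within B, at -2.01 and -1.23. Mx1, a relative of Mx2, was the extreme of that pattern, with ratios of 0.66 and -2.38 on 20 to 94 counts in the 4 libraries. Whether the Mx1 and Mx2 transcripts encode working proteins in this mouse strain was not tested. Samd9l, a brake on translation, had 5719 and 7481 counts in shCTR and 5979 and 6509 in shMettl14, and Eif2ak2, which encodes the RNA-activated kinase PKR, had 8554 and 11612 counts in shCTR and 10613 and 13205 in shMettl14. Their log2 fold changes were -0.25 (SE 0.23) and 0.06 (SE 0.25).

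The membrane proteins Ifitm3 and Bst2 were the most abundant members per length of exon, at 344 and 271 CPM per kilobase in shCTR. Ifitm3, which hinders virus fusion, had 37627 and 14561 counts in shCTR and 27000 and 22296 in shMettl14. Bst2 (tetherin), which holds budding virus on the cell, had 35659 and 18977 counts in shCTR and 31721 and 28912 in shMettl14. For both genes shCTR A was the highest library and shCTR B the lowest, with the shMettl14 libraries between them. Their ratios were -0.54 and -0.23 within A and 0.35 and 0.34 within B. The mean level of Bst2 was 245 CPM in each group, and the sign of its fold change depended on the normalization.

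The ISG15 system attaches the ubiquitin-like protein ISG15 to other proteins and takes it off. Isg15 itself had 7778 and 1638 counts in shCTR and 4124 and 1906 in shMettl14. Its log2 fold change of -0.76 (SE 0.79) was smaller than the letter difference of -2.17 (B minus A) in shCTR, and its ratio was -0.98 in A and -0.05 in B, the latter 0.09 with library totals. Usp18, which removes ISG15 and restrains the receptor, had 1233 and 767 counts in shCTR and 927 and 417 in shMettl14, a log2 fold change of -0.71 (SE 0.52), or -0.20 without shMettl14 B and -1.49 without shMettl14 A. Trim25, a ubiquitin and ISG15 ligase that activates RIG-I, had 5237 and 5487 counts in shCTR and 5058 and 5093 in shMettl14. It had the narrowest error among the members, and at a log2 fold change of -0.25 (SE 0.19) its groups did not overlap. Herc6, the mouse ligase for ISG15, had 711 and 1074 counts in shCTR and 824 and 1292 in shMettl14, with ratios of 0.15 in A and -0.0015 in B. An unnamed gene model, Gm45193, overlaps Herc6 on the same strand, and 10.3% of the 100-base words of Herc6 are shared.

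Of the ADP-ribosyltransferase genes, Parp9 and its partner Dtx3l start head to head on chromosome 16 and overlap on opposite strands over 9.40% and 8.0% of their exon bases. Parp9 had 3504 and 2535 counts in shCTR and 3138 and 2894 in shMettl14. Dtx3l, a ubiquitin ligase, had 1533 and 1342 counts in shCTR and 1436 and 1524 in shMettl14. Parp14, which modifies other proteins with single ADP-ribose units, had 1762 and 3096 counts in shCTR and 2192 and 2935 in shMettl14. Their log2 fold changes, -0.16 (SE 0.25), -0.12 (SE 0.23) and -0.11 (SE 0.36), were all within 1 standard error of 0.

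The guanylate-binding proteins, GTPases that attack the vacuoles of intracellular parasites, lie together on chromosome 3. All 3 were lower within both letters (27.7% of all genes). Gbp7 had 767 and 1172 counts in shCTR and 591 and 630 in shMettl14. Its level was 8.80 ± 2.90 CPM in shCTR and 4.91 ± 0.0942 CPM in shMettl14 (SD, n = 2 each), and the log2 fold change was -0.84 (SE 0.35). It differed between the shCTR libraries by a log2 of 0.68 and between the shMettl14 libraries by -0.04. A gene model within it, Gm43802, and its relative Gbp3 share 10.01% of its 100-base words. Gbp2 had 2219 and 1851 counts in shCTR and 2156 and 1699 in shMettl14, and Gbp3 had 2110 and 1808 in shCTR and 1948 and 1695 in shMettl14. Those log2 fold changes were -0.23 (SE 0.27) and -0.26 (SE 0.24).

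Of the 7 remaining genes, 4 were lower within both letters (27.7% of all genes). Rtp4, a chaperone of membrane receptors, had 1920 and 2569 counts in shCTR and 1606 and 1506 in shMettl14, a log2 fold change of -0.70 (SE 0.28). A gene model, Gm45338, overlaps Rtp4 on the same strand over 13.9% of its exon bases. Of the 100-base words of Rtp4, 9.28% are shared, so its counts are uncertain. Ifi44, a cytoplasmic protein, had 2132 and 1920 counts in shCTR and 1650 and 1497 in shMettl14, a log2 fold change of -0.52 (SE 0.24). In Rtp4 and Ifi44 the groups did not overlap. Xaf1, a partner of the apoptosis inhibitor XIAP, had 6182 and 2069 counts in shCTR and 4447 and 1590 in shMettl14. Its ratios of -0.54 and -0.65 were alike, but each B library was lower than either A library. Lgals3bp, a secreted glycoprotein, had 21968 and 14163 counts in shCTR and 20145 and 13335 in shMettl14 and showed the same order. Ifi27, a small membrane protein, had 15359 and 6217 counts in shCTR and 14051 and 9991 in shMettl14, and Ifi35 had 3279 and 1141 in shCTR and 2423 and 1706 in shMettl14. Both followed the pattern of Bst2, lower within A and higher within B. Ifi27l2a had 339 and 171 counts in shCTR and 379 and 97 in shMettl14, with ratios of 0.10 in A and -1.07 in B.

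**Figure D2:**
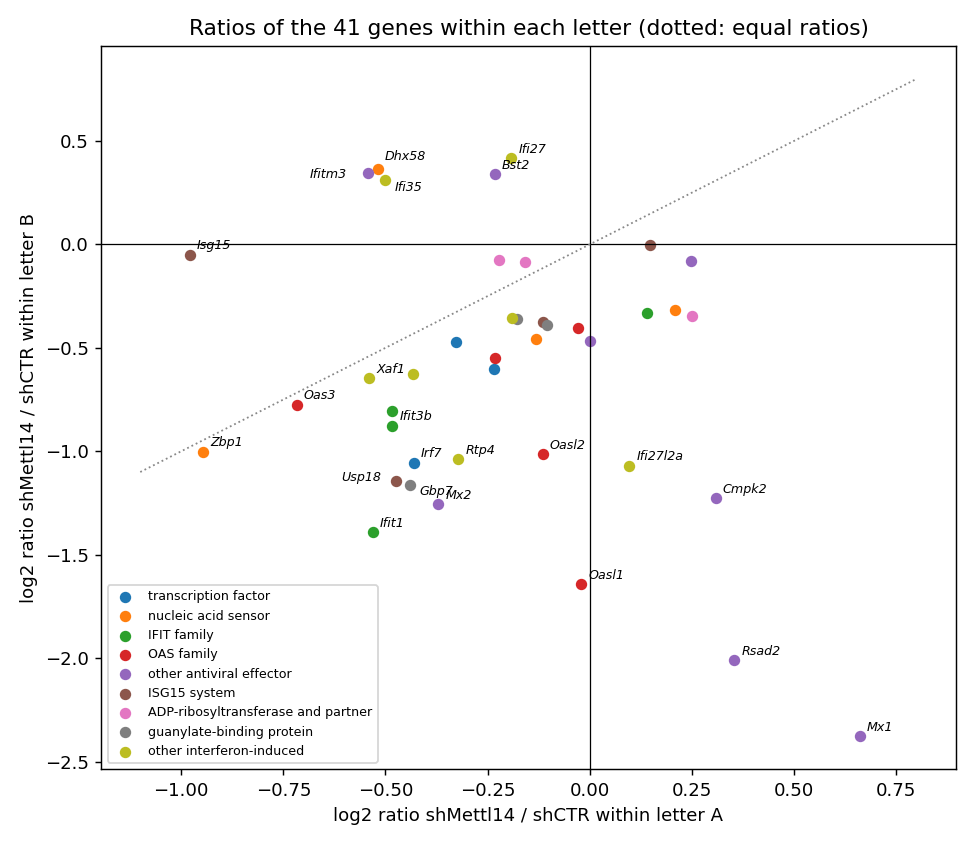
Log2 ratio of shMettl14 to shCTR within letter A (x axis) against letter B (y axis), 1 point a gene, coloured by role; the dotted line marks equal ratios. With TMM scaling, 26 points in the lower left are the genes lower within both letters, 10 lie in the lower right, 5 in the upper left and 0 in the upper right.

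The order of the genes by ratio differed between the letters. Across the 41 genes Pearson's r between the ratios was -0.243 and Spearman's rho -0.045, against 0.122 and 0.182 across all genes tested. These are descriptions across genes that share the same 4 libraries. The 10 genes that were lower in B and higher in A (20.3% of all genes) were Cmpk2, Eif2ak2, Herc6, Ifi27l2a, Ifih1, Ifit2, Mx1, Parp14, Rsad2 and Samd9l, of which Samd9l was all but level in A. The 5 that were lower in A and higher in B (22.0% of all genes) were Bst2, Dhx58, Ifi27, Ifi35 and Ifitm3. Among the 26 genes lower in both, 23 had the larger difference in B. A ratio below -1 was seen for 13 members in B and for 0 in A. The shares of all genes were not counted for the larger difference in B or for a ratio below -1.

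Members also differed between the letters with the same hairpin. In shCTR 24 were lower in B than in A and 17 were higher, and all 24 were lower in B in shMettl14 too. For 20 members the difference between the shCTR libraries was larger than the hairpin fold change, and for 8 it exceeded 1 on the log2 scale. Those 8 were Zbp1 (-2.28), Isg15 (-2.17), Dhx58 (-1.64), Xaf1 (-1.51), Ifi35 (-1.45), Ifitm3 (-1.30) and Ifi27 (-1.23), which were lower in B, and Mx1 (1.45), which was higher. The shares of all genes were not counted for these letter differences. Their median absolute size between the shCTR letters was 0.51 for the members and 0.51 for all genes tested.

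With the letters entered as a block, which treats libraries of one letter as a pair, the unadjusted count became 15 of 41, all lower (10.3% of all genes were called in either direction and 5.55% lower), and the adjusted count stayed at 0 (0.0476% of all genes). The 15 were Gbp7, Ifi44, Ifit1, Ifit3, Ifit3b, Irf7, Irf9, Isg15, Mx2, Oasl2, Rtp4, Stat2, Usp18, Xaf1 and Zbp1. The lowest adjusted p of any member in any fit was that of Ifit1 with the block, 0.18, in edgeR's quasi-likelihood test. The block narrowed the median standard error of the members from 0.35 to 0.20 and for Xaf1 the error went from 0.71 to 0.16 and for Zbp1 from 1.06 to 0.29. Some fold changes moved as well, such as Isg15 from -0.76 to -0.52, Ifi27l2a from -0.21 to -0.47 and Dhx58 from -0.25 to -0.09, and Bst2 changed sign.

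**Figure D3:**
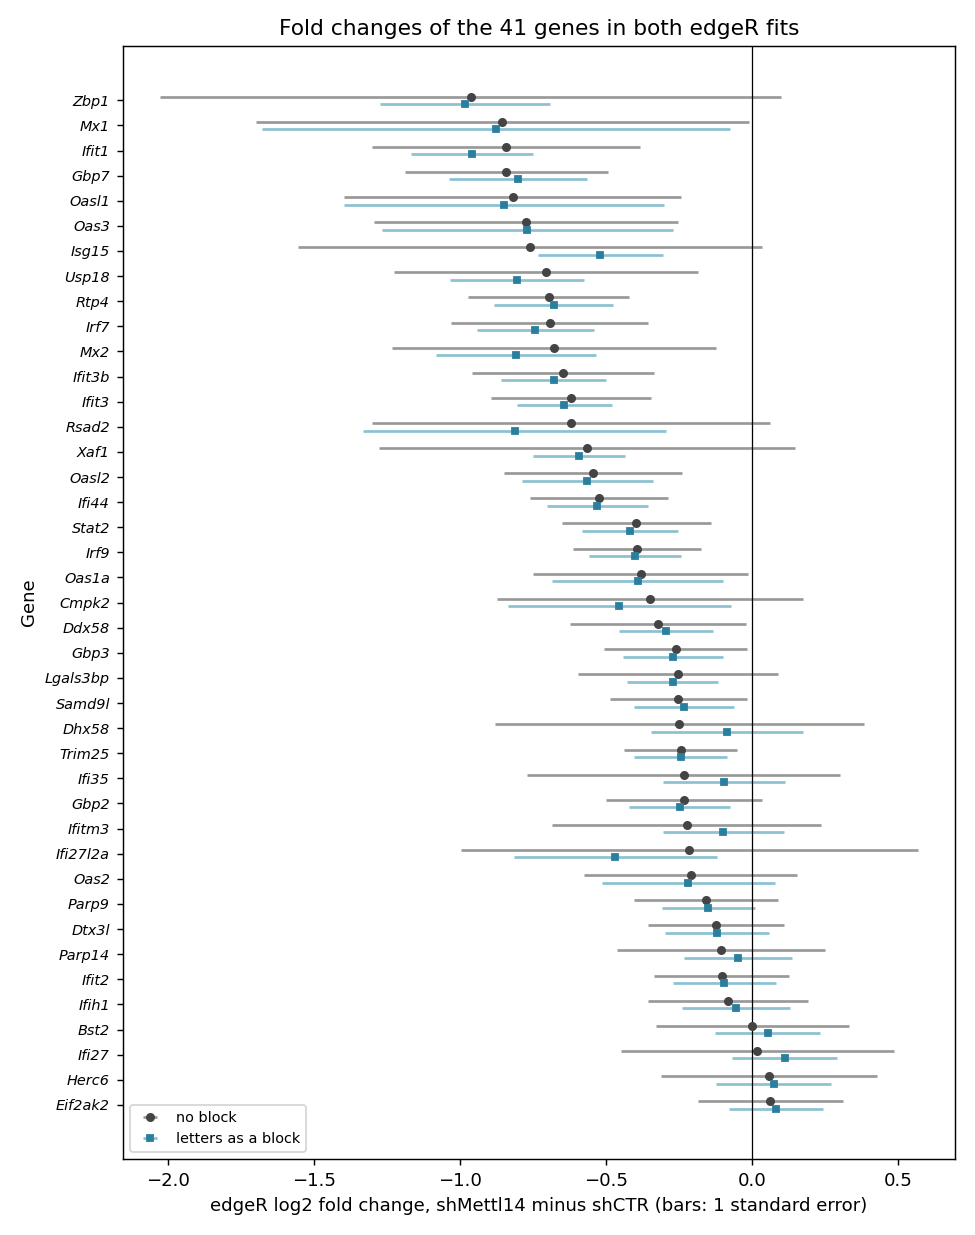
EdgeR log2 fold change of each of the 41 genes, shMettl14 minus shCTR, sorted from Zbp1 at -0.96 to Eif2ak2 at 0.06; grey circles are the fit without a block, blue squares the fit with the letters as a block, and bars are 1 standard error. The blue bars are shorter, and the points of Isg15, Ifi27l2a and Dhx58 differ visibly between the fits.

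**Figure D4:**
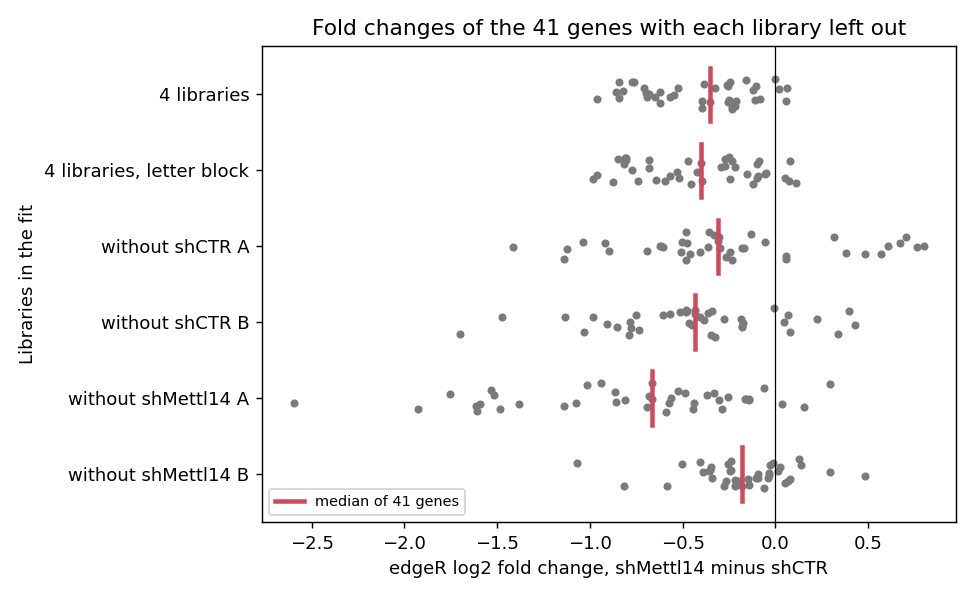
EdgeR log2 fold changes of the 41 genes (grey points, 1 a gene, spread vertically for legibility) with all 4 libraries, with the letter block, and with each library left out; the red line is the median. The median lay between -0.66 without shMettl14 A and -0.18 without shMettl14 B.

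Levels per length of exon spanned a wide range among the members in shCTR. Ifitm3 and Bst2 were followed by Ifi27 at 65.7, Lgals3bp at 57.0, Isg15 at 55.3 and Ifit3 at 33.3 CPM per kilobase, and the lowest were Mx1 at 0.156 and Oas3 at 0.0956. With 2 libraries a group and letter differences as large as those of Ifi27 and Isg15, the order of Ifi27, Lgals3bp and Isg15 is not settled by these values.

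Genes with and without an ISRE core in the promoter had similar median ratios, and the difference was not tested. The 16 genes with a core had a median log2 fold change of -0.39, with -0.23 within A and -0.50 within B, and the 14 genes whose promoter held none had medians of -0.30, -0.14 and -0.47. Among the genes whose windows are printed above, Ifit1, Ifit3, Ifit3b, Gbp7, Stat2 and Isg15 were lower within both letters, Rsad2 in B alone, and Eif2ak2 and Bst2 had fold changes close to 0. The 11 genes without a promoter in the table were Dhx58, Ifi27, Ifi27l2a, Mx1, Mx2, Oas2, Parp14, Parp9, Rtp4, Usp18 and Zbp1.

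The genes that act upstream of the members or regulate them were counted in the same way. Of 39 genes of the pathway, 28 were tested, 0 passed at the adjusted or the unadjusted threshold in edgeR, and 8 were lower and 7 higher within both letters (27.7% and 30.0% of all genes), with a median log2 fold change of -0.02. With the letter block 4 passed at an unadjusted p of 0.05, all lower, namely Ifnar2, Il10rb, Irf5 and Tmem173 (10.3% of all genes in either direction and 5.55% lower). Interferon transcripts themselves were at or near the floor. Of 9 interferon genes 6, Ifnb1 among them, had 0 counts in all libraries, Ifna1 had no more than 1 count, and Ifna2 and Ifne had no more than 5. Ifnar1 and Ifnar2, the chains of the type I receptor, had log2 fold changes of -0.13 (SE 0.20) and -0.38 (SE 0.26). The kinases Jak1 and Tyk2 had values of 0.04 (SE 0.22) and 0.19 (SE 0.26), the factors Irf1 and Irf3 values of 0.01 (SE 0.25) and -0.01 (SE 0.26), and Adar, which edits double-stranded RNA and thereby keeps sensors quiet, a value of 0.20 (SE 0.19).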

How the data were processed

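Poly-A RNA was read paired-end by the authors from 4 libraries (stranded kit), aligned with STAR to mm10 and counted per gene with featureCounts. The strand setting, the treatment of multimapping reads and the tool versions are not given in the sources used here. The deposited values are raw counts per gene. Groups and letters came from the labels.

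edgeR 4.0.16 (R 4.3.3) was fitted to the counts of all 4 libraries with filterByExpr, TMM scaling, robust dispersions and the quasi-likelihood test of shMettl14 against shCTR, with Benjamini-Hochberg adjustment over the 18916 genes tested. SE is the size of the log2 fold change over the square root of the F statistic. CPM values are TMM-scaled, and ratios within a letter are differences of log2 CPM with a prior count of 2. DESeq2 1.42.0, other scalings and filters, a letter block and the omission of each library were alternatives. The edgeR step was also run on simulated counts, whose outcome is not given here and was not used for any result. The deviations of same-lettered libraries from their group means correlated at 0.578 over all genes tested, and with 2 pairs and no statement of shared cultures the letters were not accepted as pairs. Coordinates, exon lengths and shared 100-base words came from GENCODE annotation of GRCm38, and promoters from RefSeq (GRCm38.p6). The members and lists were chosen with earlier results of these data known. All members were named, by role; counts in every library were given for members reaching 100 counts in 1 library, and by range for the others, and other genes were limited to Mettl14, pathway genes and markers.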

Additional observations from a re-analysis of the deposited data

How the results depend on the processing

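No alternative called a member at an adjusted p of 0.05. At an unadjusted p of 0.05, edgeR's 0 (1.67% of all genes) became 15 with the letters as a block (10.3% of all genes). The count became 2 without the filter on low counts, Ifit3 and Rtp4 (1.62% of all genes), and 2 with DESeq2 (1.52% of all genes). The cause was not tested. For Mettl14 the log2 fold change passed the adjusted threshold at -2.08 with the block and at -2.09 with DESeq2. The median member log2 fold change was between -0.66 and -0.18 with a library left out. These fits assume that a lone library varies like the other group, and their groups are unequal in letters.

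Members lower within both letters numbered 27 with RLE scaling and 21 with library totals, which moved the median of all genes to 0.08 within A and 0.16 within B and the share of all genes lower in both to 18.3%; the 5 members lost were Isg15, Oas2, Oasl1, Parp9 and Dtx3l. Under library totals, a setting added for this count after seeing the data, 11 members in place of 17 had both shMettl14 libraries below both shCTR libraries. An alternative chosen after seeing the data left out the 6 members that share over 5% of their 100-base words with other genes. Of the rest 21 were lower within both letters (27.7% of all genes). The median member log2 fold change was then -0.26, against -0.35 with all members. Of the 41 members 21 were lower in every fit. Bst2 turned to 0.053 with the block, 0.022 with upper-quartile scaling, 0.0072 with no filter and 0.011 with at least 10 counts in every library.

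With a library left out 20 members changed sign.
Their log2 fold changes then ran as follows, lowest to highest: Ifit2 -0.27 to 0.078, Isg15 -1.52 to 0.71, Mx1 -1.93 to 0.071, Rsad2 -1.75 to 0.014, Ddx58 -0.62 to 0.049, Ifih1 -0.33 to 0.22, Dhx58 -0.85 to 0.80, Bst2 -0.36 to 0.48, Ifi35 -0.79 to 0.67, Ifi27 -0.47 to 0.77, Ifi27l2a -1.61 to 0.48, Xaf1 -1.59 to 0.38, Cmpk2 -1.08 to 0.14, Parp9 -0.35 to 0.057, Parp14 -0.48 to 0.40, Zbp1 -2.60 to 0.61, Eif2ak2 -0.17 to 0.34, Herc6 -0.23 to 0.43, Lgals3bp -0.66 to 0.067, Ifitm3 -0.74 to 0.57. Of the 21 members lower in every fit, 19 moved by over 1.5 times with some library left out, all but Ifi44 and Trim25: Ifit1 -1.61 to -0.34, Ifit3 -0.94 to -0.36, Ifit3b -1.02 to -0.35, Mx2 -1.53 to -0.14, Oas1a -0.57 to -0.21, Oas2 -0.37 to -0.062, Oas3 -1.07 to -0.45, Oasl1 -1.38 to -0.41, Oasl2 -0.86 to -0.28, Irf7 -1.14 to -0.35, Irf9 -0.56 to -0.24, Stat2 -0.69 to -0.15, Usp18 -1.49 to -0.20, Rtp4 -0.92 to -0.43, Dtx3l -0.18 to -0.057, Gbp2 -0.49 to -0.01, Gbp3 -0.44 to -0.10, Gbp7 -1.14 to -0.46, Samd9l -0.46 to -0.0079.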
